A study of Mus musculus with 12 samples.

Results

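The transcriptome described here is that of control MC38-idAdpgkG cells, held in 3 of the 12 RNA libraries of the series and chosen by their label as the control condition. These cells had received 20 ng/mL mouse IFNg (interferon-gamma) for 51 h and neither of the other agents. MC38 is a mouse colon carcinoma line of C57BL/6 origin. MC38-idAdpgkG carries a stably transfected, doxycycline-inducible and degradable construct, Adpgk(R304M) fused to turboGFP, in which a mutated ADP-dependent glucokinase serves as a model neoantigen. The control cells carry the construct, were given no doxycycline to induce it and no dTAG-13 to degrade its product. In the other 3 groups, also of 3 libraries each, the same IFNg dose was joined by 1 µg/mL doxycycline for 51 h, by 1 µM dTAG-13 for the last 3 h, or by both. The 3 libraries of a group are technical replicates of 1 culture, so every SD below is the spread between libraries of that culture and says nothing of other cultures. No library came from cells without IFNg, so no level below can be called induced.

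Interferon-gamma binds a receptor of 2 chains, Ifngr1 and Ifngr2, whose Janus kinases phosphorylate transcription factors of the STAT family. STAT dimers bind short palindromes in promoters and turn on Irf1 and other factors, which in turn raise genes of antigen processing, peptide loading and MHC class I. MHC class I molecules display peptides of the cell's own proteins to CD8+ T cells. In colon epithelium, cells are held together by E-cadherin and carry simple keratins, whereas mesenchymal cells carry vimentin and secrete fibrillar matrix.

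The 3 control libraries, called library 1, 2 and 3 by their replicate label, held 32809573, 32051401 and 29215355 reads counted to genes, the 12 libraries from 22165538 to 32809573. Levels of 1 gene across libraries are in CPM (counts scaled to 1000000 in each library), and levels of different genes are compared in TPM, which divides counts by the length of the gene's exons and scales the result to the same sum. A gene was counted as expressed at 1 CPM or more in each of the 3 control libraries. A count of 0 allows up to 3 reads, or 0.0914 to 0.1027 CPM, counting error only. By that rule 11253 of 27179 gene IDs were expressed (41.4%), among them 10541 of 20983 protein-coding genes (50.2%). No read was counted in any control library for 10213 IDs (37.6%), of which 6439 were protein-coding (30.7% of those genes).

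The median expressed nuclear protein-coding gene stood at 28.01 TPM. The range was wide, with 71 nuclear protein-coding genes at 1000 TPM or more, 1733 between 100 and 1000 TPM, and 6186 between 10 and 100 TPM. The 10 IDs with the most reads took 4.16%, 4.101% and 4.47% of all counts in the 3 libraries. The 100 highest took 16.1% ± 0.21 (SD, n = 3 libraries) and the 1000 highest 49.0% ± 0.11. Values after ± are SDs over the 3 libraries throughout. Nuclear protein-coding genes took 93.6% of counts, pseudogenes 1.95% and long non-coding RNAs 0.302%. An ID without a symbol, Entrez 100861531, had the highest mean CPM of all, with 226104, 183017 and 232326 counts. In library 2 Pabpc1, the poly(A)-binding protein, had more, with 184373, 185477 and 180646 counts in the 3 libraries.

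Lgals1 (Entrez 16852), which encodes the secreted lectin galectin-1, had the highest level of any nuclear protein-coding gene, with 10256, 10321 and 10917 TPM in the 3 libraries. B2m (Entrez 12010), the invariant light chain of MHC class I, followed with 8553, 8677 and 9417 TPM. The 2 genes did not overlap in any library. Among the next 8 genes, Rplp1, Rpl8, Rps15 and Rplp0 encode ribosomal proteins, Eef1a1 is the elongation factor that carries tRNA to the ribosome, and Hsp90ab1 is a cytosolic chaperone. Their mean TPM were 7858, 5376, 4113, 3769.6, 5137 and 3611. Ribosomal protein levels are uncertain, because many have near-identical copies in the genome. For Rplp1, 75.1% of the 31-base words of its transcript occur in another gene's transcripts, against 0% for Lgals1 and 0% for B2m. The retrocopies Rpl34-ps1 and Rps27rt, at 4792 and 2369 TPM, shared 100% and 92.7% of their words. Reads of a gene and its copies cannot be told apart there.

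Proteins encoded in mitochondrial DNA took 6.41%, 6.75% and 7.36% of TPM, the largest share of the 15 gene classes measured. The order of the libraries was the same in mt-Cytb, the cytochrome b of respiratory complex III, with 11849.8, 12110.2 and 13399 TPM. Shared words are found in this class too, at 100% for mt-Co2 and 99.5% for mt-Atp6, against 6.55% for mt-Cytb and 0% for mt-Nd1. With the longest transcript as length, mitochondrially encoded proteins took 5.39% of TPM and cytosolic ribosomal proteins 5.32%. With the length of all exons, the other classes stood as follows. Cytosolic ribosomal proteins took 5.06% ± 0.065, translation factors 2.68% ± 0.0080 and chaperones 2.61% ± 0.020. Nuclear subunits of oxidative phosphorylation, the chain that makes ATP in mitochondria, took 1.89% ± 0.040. The MHC class I presentation class took 1.42% ± 0.021, more than the proteasome at 1.05%, glycolytic enzymes at 0.960% and the other interferon-stimulated genes at 0.716%. B2m alone, at 8882 TPM, held most of the MHC class I presentation share. The order of these classes depended on the length used. With the longest transcript as length, glycolytic enzymes took 1.37% and MHC class I presentation 1.24%. As shares of counts, glycolytic enzymes took 1.13% and the proteasome 0.865%, more than MHC class I presentation at 0.742%. Chaperones and translation factors took 2.97% and 3.16% of counts, more than mitochondrially encoded proteins at 2.14%. Classes were cut by name patterns, and that of chaperones also took Hspg2, a basement membrane proteoglycan, at 87.3 TPM. That of cytosolic ribosomal proteins held Rps27rt but left out the copies Rpl34-ps1 and Rpl37rt, at 4792 and 3882 TPM. The order of the 2 largest classes is therefore uncertain. That of glycolytic enzymes left out Eno1b, at 1181 TPM with 88.5% of words shared.

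**Figure D1:**
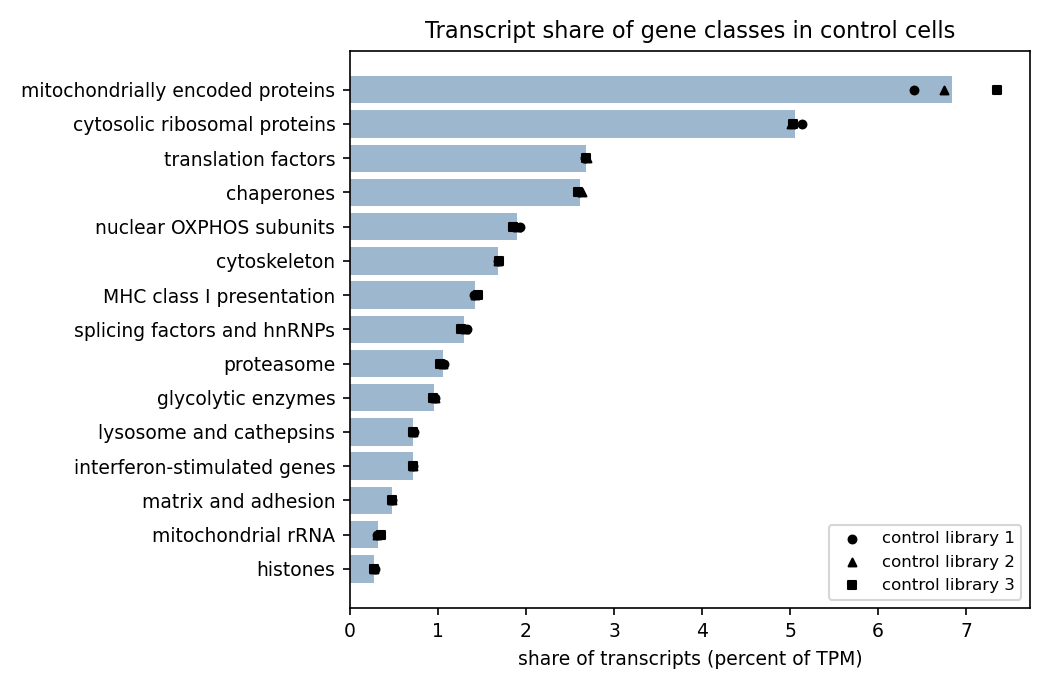
Share of transcripts by gene class in control cells. The x axis is the percent of TPM, bars are means over 3 control libraries and points are the libraries; mitochondrially encoded proteins span 6.41% to 7.36%, while the libraries lie close together in most other classes.

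The receptor and relay of the interferon-gamma signal were present. Of 19 genes of the pathway, 18 were expressed (94.7%, beside 50.2% of protein-coding genes). The receptor chains stood near the median of expressed genes, with 26.5, 25.5 and 26.7 TPM for Ifngr1 and 32.1, 32.5 and 32.7 TPM for Ifngr2. The kinases Jak1 and Jak2, which the receptor holds, had 97.3 ± 1.86 and 43.6 ± 1.37 TPM. Irf1 (Entrez 16362), a transcription factor that the pathway turns on early, had 347, 347 and 347 TPM. The libraries differed little in this gene.

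The brakes of the pathway were expressed as well. The inhibitors Socs1 and Socs3, which bind the kinases, had 15.4 ± 0.955 and 32.6 ± 0.962 TPM. The phosphatases Ptpn11 and Ptpn2 stood higher, at 149 ± 5.77 and 104 ± 4.6004 TPM. Usp18, which damps type I interferon signalling, had 3.81 ± 0.248 TPM. Irf8, an interferon-responsive factor of blood cells, was the member not expressed, with 0, 0 and 1 reads. Of the 16 STAT and IRF factors, 11 were expressed (68.75%, beside 50.2% of protein-coding genes). Stat4, Irf4, Irf5 and Irf8 were among those that were not, while Stat3 and Stat6 had 45.7 ± 0.692 and 55.5 ± 0.3199 TPM.

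Promoters of these genes hold the letters that interferon factors bind, and 5 of them are printed to show the matches. The palindrome TTCNNNGAA (any letter at N) is that of a STAT dimer, and GAAA, any 2 letters and GAAA again form the element bound by IRF factors. Sequences are RefSeq's for GRCm38.p6, read 5′ to 3′ on the gene's own strand, with the match in capitals and 30 bases on either side. In Irf1 (chr11:53769894-53769962, plus strand) the STAT match lies 90 to 82 bases before the annotated start. The IRF match lies 59 to 50 bases before the start in Gbp2 (chr3:142620574-142620643, plus strand), where it reads on the opposite strand, and 124 to 115 bases before it in Bst2 (chr8:71537557-71537626, minus strand). It lies 139 to 130 bases before the start in B2m (chr2:122147518-122147587, plus strand) and 34 to 25 bases before it in Igtp (chr11:58199492-58199561, plus strand).
Irf1: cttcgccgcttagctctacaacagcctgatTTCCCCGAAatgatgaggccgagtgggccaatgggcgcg
Gbp2: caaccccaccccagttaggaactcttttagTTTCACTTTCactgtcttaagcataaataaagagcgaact
Bst2: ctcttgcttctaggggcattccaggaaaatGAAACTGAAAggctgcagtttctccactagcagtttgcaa
B2m: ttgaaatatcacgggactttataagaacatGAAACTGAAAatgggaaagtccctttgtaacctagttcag
Igtp: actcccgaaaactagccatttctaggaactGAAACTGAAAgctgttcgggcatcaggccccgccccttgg

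Of promoters of 33 interferon effector genes with a RefSeq window (250 bases before to 50 after the start), 63.6% held the IRF element on either strand, against 3.43% of all 16784 protein-coding promoters. TTCNNNGAA was in 36.4% and 7.84%. For the 20 MHC class I pathway promoters the IRF element was in 25.0% and the STAT palindrome in 10.0%. A match describes letters and does not show binding, and the 2 motifs can overlap.

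Of 51 interferon effector genes, 45 were expressed. This is 88.2% of the list, against 50.2% of protein-coding genes. Bst2, the tetherin that holds virus particles on the cell, had 967, 929.9 and 877 TPM, and Gbp2, a guanylate-binding GTPase, 881, 903 and 926 TPM. Library 1 was highest for Bst2 and lowest for Gbp2. Ifitm3, which blocks virus entry, had 838 ± 9.68 TPM. The immunity-related GTPases Igtp, Irgm1 and Iigp1, which attack vacuoles of intracellular pathogens, had 691 ± 3.51, 242 ± 3.95 and 199.8 ± 3.05 TPM. The near-identical Tgtp1 and Tgtp2 had 273 and 132 TPM and share 94.2% of the words of Tgtp1. Isg15, a ubiquitin-like modifier, had 137 ± 4.31 TPM, and the antiviral proteins Ifit1 and Rsad2 had 10.02 ± 0.949 and 11.2 ± 0.581.

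The 6 effectors not expressed were Oasl1, Oas2, Ido1, Mx1, Mx2 and Ifi27l2a. Ido1, the tryptophan-degrading enzyme, had 6, 7 and 8 reads. The chemokine Cxcl9, which draws T cells, had 33, 35 and 14 reads and missed the threshold in library 3 only. Cxcl10, a ligand of the same receptor, had 93.1, 92.7 and 96.4 TPM. Nos2, the inducible nitric oxide synthase, had 4.7998 ± 0.676 TPM. The immune checkpoint ligand Cd274 (PD-L1) had 71.7, 74.3 and 72.4 TPM, and Pdcd1lg2 (PD-L2) had 0 reads in each of the 3 libraries.

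All 25 genes of the MHC class I pathway were expressed, beside 50.2% of protein-coding genes, with a median of 235.8 TPM. Their summed TPM was 18137, 18271 and 18542. The heavy chain H2-D1 had 1669, 1648 and 1505 TPM. H2-K1, the other classical heavy chain of this strain, had 1591, 1569 and 1425 TPM. Library 3 was lowest for both heavy chains and highest for B2m. The 2 genes share 27.5% and 22.5% of their words with other genes, where reads of the copies cannot be told apart. H2-Q4, H2-Q6 and H2-Q7, non-classical class I genes, had 568, 400.04 and 244 TPM with 38.5%, 50.3% and 41.3% shared words. H2-T23, which encodes Qa-1, had 3.62 ± 0.325 TPM.

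The peptide supply was present at each step. The immunoproteasome subunits Psmb8, Psmb9 and Psmb10 had 261 ± 11.9, 89.3 ± 2.42 and 379 ± 13.1 TPM, and the activator chains Psme1 and Psme2 236 ± 1.88 and 42.6 ± 2.58. The transporter chains Tap1 and Tap2, which carry peptides into the endoplasmic reticulum, had 217 ± 3.71 and 113 ± 8.96 TPM. Tapasin (Tapbp), which bridges the transporter and the heavy chain, had 385 ± 3.34 TPM, and its relative Tapbpl, a peptide editor, 45.1 ± 3.11. Erap1, the peptidase that trims peptides, had 71.3 ± 3.28 TPM. The general chaperones Pdia3, Canx and Calr, which fold many other proteins too, had 1311 ± 28.2, 943 ± 12.1 and 774 ± 1.85 TPM. Nlrc5, the transactivator of class I genes, had 32.4 ± 0.712 TPM.

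Most of the class II pathway was below the threshold. Of 16 genes, 5 were expressed (31.25%, beside 50.2% of protein-coding genes), and none of these is an antigen-presenting class II chain. H2-Aa and H2-Ab1, the chains of I-A, had 0 reads in each library. H2-Eb1 had 0, 1 and 0 reads, the invariant chain Cd74 2, 4 and 3, and Ciita, the master regulator of class II genes, 2, 4 and 0. The members above threshold were Ifi30, a lysosomal thiol reductase with 108, 109 and 118 TPM, the peptide-exchange chain H2-DMb1 with 18.4 ± 0.268 TPM, and the general RFX factors Rfxap, Rfx5 and Rfxank with 31.01 ± 1.05, 7.498 ± 0.211 and 5.16 ± 0.4302. H2-DMa, the partner of H2-DMb1, had 17, 22 and 18 reads. The genes of classes I and II thus lay on either side of the median expressed gene, apart from the 3 class I genes H2-T10, H2-T23 and H2-T24 below it and Ifi30 and Rfxap above it.

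**Figure D2:**
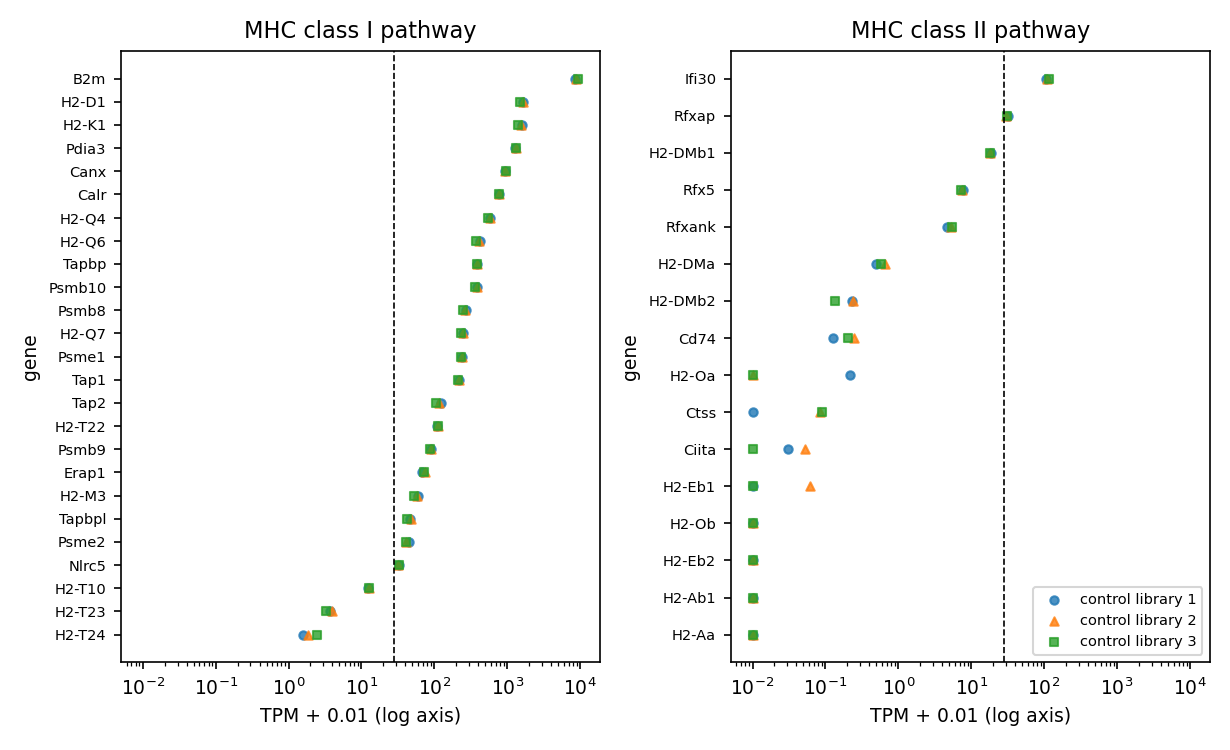
TPM of the MHC class I pathway (left) and class II pathway (right) in the 3 control libraries, on a log axis with 0.01 added. Each point is a library and the dashed line is the median expressed protein-coding gene, 28.01 TPM; 22 class I genes lie above it and 11 class II genes lie below 1 TPM.

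The label gives the cells as colon carcinoma, but the defining markers of colon epithelium were at or near 0. Of 45 such markers 2 were expressed (4.44%, beside 50.2% of protein-coding genes). No read was counted for 22 of the 45, where 30.7% of protein-coding genes had none. Epcam (Entrez 17075), the epithelial adhesion molecule, had 0 reads in each library. Cdh1 (Entrez 12550), which encodes E-cadherin, had 1, 6 and 7 reads. Krt8 had 0, 0 and 3, Krt18 had 0 in each library, and Krt19 had 0, 2 and 0. These are the simple keratins of gut epithelium, and Krt8 and Krt18 share 32.3% and 11.4% of their words with other genes. The brush-border protein Vil1 had 1, 0 and 3 reads, the intestinal transcription factor Cdx1 had 0, 0 and 1, its relative Cdx2 had 0 in each library, and the stem cell receptor Lgr5 0, 0 and 3. The summed TPM of the 45 markers was 16.3, 16.9 and 18.3. The expressed members included Klf5, a factor of crypt cells, at 5.82 ± 0.574 TPM.

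Wider epithelial families held few expressed genes, where 50.2% of protein-coding genes were expressed and 30.7% had no read. Of 54 keratins 1 was expressed (1.85%), Krt10, at 6.98 ± 0.955 TPM, and 40 had no read. Of 50 junction genes (claudins, desmosomal proteins, connexins and their partners) 6 were expressed. These included Cldn12, a claudin, with 165 ± 2.52 TPM, Pkp4, Gja1 (connexin 43), Tjp1 and Pkp3. Of 23 cadherins 4 were expressed (17.4%), led by Cdh2, which encodes N-cadherin, at 14.4, 14.6 and 13.7 TPM.

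Mesenchymal genes stood at the other end. Of 36 listed, 25 were expressed, 69.4% against 50.2% of protein-coding genes, and their summed TPM was 3352, 3349 and 3382. Vim (Entrez 22352), the intermediate filament of mesenchymal cells, had 970.3, 997 and 981 TPM. Fn1, the matrix glycoprotein fibronectin, had 202, 204 and 211 TPM, and Sparc, a matrix-binding secreted protein, 150.1, 148 and 154 TPM. In Vim library 2 was highest, and in Fn1 and Sparc library 3. The transcription factors Twist1 and Snai1, which repress E-cadherin, had 112 ± 1.81 and 109 ± 8.13 TPM, and Prrx1, a homeobox factor of limb mesenchyme, 94.8 ± 1.95. Zeb1, Zeb2 and Snai2, of the same repressor group, stood lower at 19.3 ± 0.576, 15.9 ± 0.674 and 13.7 ± 0.559 TPM. With the longest transcript as length, Zeb2 stood at 27.4 TPM. Pdgfra, a growth factor receptor of fibroblasts, had 48.7 ± 0.549 TPM and Pdgfrb 2.99 ± 0.116.

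The mesenchymal list was not complete. Of the chains of type I collagen, Col1a1 had 3, 1 and 0 reads and Col1a2 had 6, 3 and 7. Thy1, Fap and Postn, other fibroblast genes, had 0 reads in each library, and Col3a1, type III collagen, had 272, 274 and 260.1 TPM. S100a4, a calcium-binding protein of motile cells, had 633 ± 9.83 TPM with 58.1% of words shared.

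Markers of other cell types were scarce, where 50.2% of protein-coding genes were expressed. Of 18 leukocyte genes 1 was expressed (5.56%), Cd14, a receptor for bacterial lipopolysaccharide, at 11.3 ± 0.294 TPM. Ptprc (CD45) had 0 reads in each library. The 14 muscle genes gave 2 expressed (14.3%), Smtn at 118 ± 1.38 TPM and Acta1 at 3.44 ± 0.446. Acta2, smooth muscle actin, had 1, 2 and 0 reads. Of 10 endothelial genes, Egfl7 and Pecam1 were expressed (20.0%), at 3.08 ± 0.567 and 1.46 ± 0.0914 TPM. Egfl7 stood at 4.66 TPM with the longest transcript as length. None of 6 erythroid genes was expressed. In bulk RNA, a few cells of a type and a low level in every cell cannot be told apart. Of 14 neural and melanocyte genes 4 were expressed (28.6%), among them Tubb3, Ncam1 and Nes at 75.9 ± 2.76, 43.5 ± 0.665 and 5.399 ± 0.279 TPM.

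**Figure D3:**
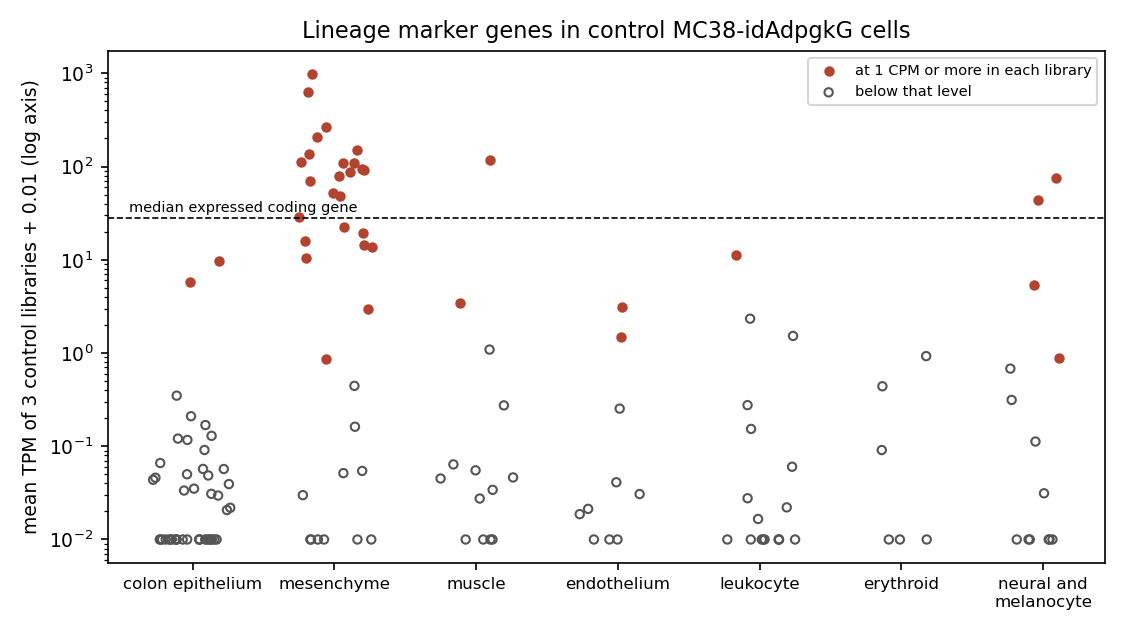
Mean TPM of lineage markers in control cells (log axis, 0.01 added), 1 point per gene, filled where the gene had 1 CPM or more in each library. The dashed line is the median expressed protein-coding gene; 25 of 36 mesenchymal genes and 2 of 45 colon epithelial genes are filled.

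Hox genes encode homeobox factors whose order along 4 clusters follows the body axis, with high numbers used towards the tail. Of 39 Hox genes 20 were expressed, 51.3% beside 50.2% of protein-coding genes. The highest was Hoxc10 (Entrez 209448), with 127, 128 and 143 TPM, followed by Hoxd13 with 50.9, 47.6 and 51.1 and Hoxa11 with 50.3, 49.5 and 45.2. The values of Hoxc10 did not overlap those of any other Hox gene. Paralogues 9 to 13 held 11 expressed genes of 16, with a median of 11.4 TPM, and paralogues 1 to 8 held 9 of 23, with a median of 0.966 TPM. In Hoxa 8 of 11 genes were expressed, in Hoxc 5 of 9 and in Hoxd 6 of 9. In Hoxb 1 of 10 was, Hoxb13, a factor of the hindgut and prostate, at 5.63 ± 1.17 TPM. At 5 CPM in place of 1 CPM, 12 Hox genes remained above the threshold.

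**Figure D4:**
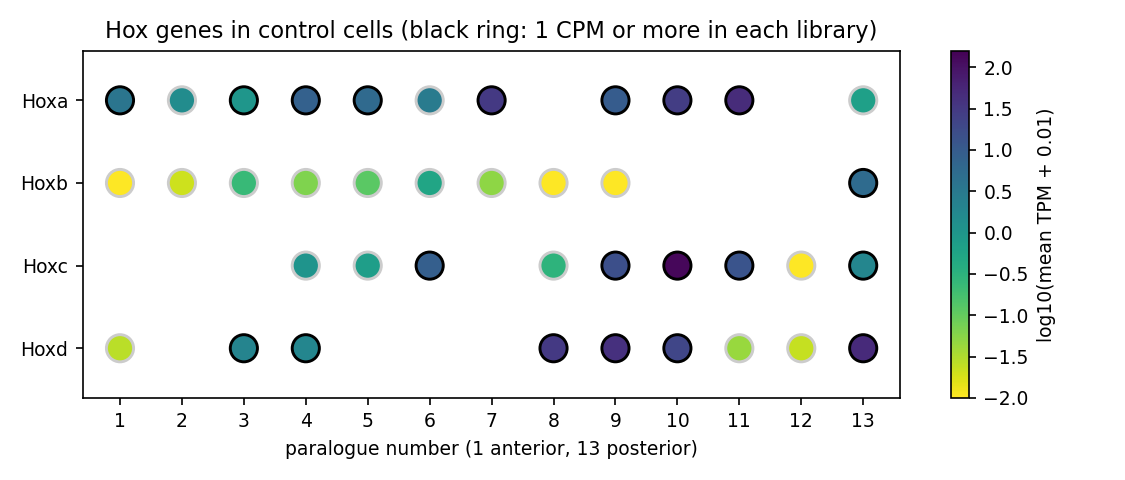
Mean level of 39 Hox genes in control cells by cluster and paralogue number, coloured by log10 of TPM + 0.01, with a black ring at 1 CPM or more in each library. Paralogues 9 to 13 hold 11 ringed genes of 16, and Hoxb holds 1 of 10.

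The shares of other developmental factors are read against the same 50.2%. Of 20 Sox genes 6 were expressed, with Sox9, a factor of cartilage and of gut crypts, at 131, 127 and 134 TPM, then Sox12 and Sox4 at 95.7 ± 1.39 and 90.7 ± 2.21. Sox2, a factor of stem and foregut cells, had 8.53 ± 0.986 TPM. Of 16 T-box genes 6 were expressed (37.5%). Tbx15, a factor of limb and skin mesenchyme, led with 86.1, 89.6 and 91.1 TPM, and Eomes, which is known from early embryo and lymphocytes, had 16.4 ± 0.244 TPM. Of 44 Fox genes 22 were expressed, near the background share, led by the widely used Foxk2 at 166 ± 1.24 TPM and by Foxm1, a factor of dividing cells, at 121 ± 3.93. Foxl1, known from the mesenchyme beneath gut epithelium, had 81.9, 78.5 and 71.1 TPM. Of 6 Gata genes 3 were expressed, also near it. Gata2, Gata3 and Gata6 had 18.1 ± 0.8696, 4.03 ± 0.498 and 2.96 ± 0.336 TPM, and the other 3 Gata genes had at most 1 read in all.

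Of 11 AP-1 genes, which relay growth and stress signals, 9 were expressed (81.8%, beside 50.2% of protein-coding genes). Jun had 545, 553 and 548 TPM and Fosl1 284, 280.3 and 286. Fos, a partner of Jun that is made briefly after a stimulus, had 3.46 ± 0.457 TPM. All 6 genes of the Yap and Tead group were expressed. Wwtr1, which encodes TAZ, had 325, 333 and 334 TPM and Yap1 77.8, 76.5 and 75.9, and the values of the 2 co-activators did not overlap. Of 17 Klf genes 12 were expressed (70.6%), led by Klf6 at 246 ± 0.197 TPM and Klf4 at 134 ± 5.78. Of the Runx factors, Runx1 and Runx2 had 35.5 ± 1.38 and 8.92 ± 0.362 TPM, Runx3 had 0 reads, and their shared partner Cbfb had 288 ± 6.37 TPM. With the longest transcript as length, Runx1 stood at 57.4 TPM.

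Of 44 collagens 16 were expressed (36.4%, beside 50.2% of protein-coding genes). The basement membrane chains Col4a1 and Col4a2 led, with 435, 434 and 424 TPM for Col4a1 and 349, 342 and 341 TPM for Col4a2, and Col4a1 was above Col4a2 in each library. Of the laminin and basement membrane genes 8 of 15 were expressed (53.3%), a share near the background. Lamb1 and Lamc1 had 136 ± 2.11 and 146 ± 2.56 TPM, and no laminin alpha chain reached the threshold in all 3 libraries. Lama3 came nearest, with 1.04, 1.09 and 0.958 CPM. Of 26 integrins 12 were expressed (46.2%), also near the background. Itgb1, the beta chain shared by many of them, had 761, 773 and 766 TPM, and Itgav and Itga5, alpha chains of receptors for fibronectin, 83.8 ± 0.989 and 79.6 ± 1.09. Of 78 metalloproteases and inhibitors 25 were expressed (32.1%), with the inhibitor Timp2 at 568 ± 20.1 TPM and the membrane-bound collagenase Mmp14 at 135 ± 2.799.

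Of 45 cytoskeletal isotypes 33 were expressed (73.3%, beside 50.2% of protein-coding genes). Actb, a cytoplasmic actin, had 3453, 3452 and 3535 TPM, with 35.1% of words shared, and the actin-turnover proteins Cfl1 and Pfn1 had 1162 ± 4.59 and 1033 ± 9.99. Tmsb10, an actin-binding peptide, had 642 ± 21.6 TPM, while its relative Tmsb4x had 2, 1 and 0 reads. None of the words of Tmsb4x is shared with another annotated gene, and no cause for its low count was tested.

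The genes most often altered in colorectal cancer were nearly all transcribed, 31 of 33 (93.9%, beside 50.2% of protein-coding genes). Myc, the growth-promoting transcription factor, had 539, 538 and 574 TPM. Ctnnb1, which encodes beta-catenin, had 268, 272 and 262 TPM and its restrainer Apc 21.2 ± 0.0619. Axin2 and Rnf43, targets of beta-catenin signalling, missed the threshold, with 32, 26 and 31 reads for Axin2 and 7, 4 and 1 for Rnf43. Nras and Hras had 129 ± 0.923 and 68.5 ± 3.01 TPM, Trp53 93.9 ± 5.27 TPM and Smad4 134 ± 1.21. Read counts do not show whether any of these genes carries a mutation. Of 43 Wnt ligands, receptors and antagonists 14 were expressed (32.6%), led by Wnt7b with 224, 218 and 219 TPM and Wnt5a with 69.8, 68.7 and 67.3.

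The cells carried the transcripts of division. All 26 cell cycle genes were expressed, beside 50.2% of protein-coding genes, with a median of 109 TPM. Ccnd1, which encodes cyclin D1, had 1337, 1312 and 1322 TPM, and its kinases Cdk4 and Cdk6 had 357 ± 12.6 and 11.6 ± 0.292. The proliferation markers Top2a and Mki67 had 367 ± 4.63 and 77.1 ± 3.52 TPM. The inhibitors Cdkn2a and Cdkn2b, which are lost in many lines, had 61.1, 53.8 and 53.8 TPM (Cdkn2a) and 174, 175 and 171 TPM (Cdkn2b). Cdkn2b was above Cdkn2a in each library. Tert, the catalytic subunit of telomerase, had 16, 44 and 21 reads and missed the threshold in library 1 and library 3.

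All 13 genes of mismatch repair and replicative polymerase were expressed, beside 50.2% of protein-coding genes. Msh6 and Pms2, of the core repair complexes, had 74.2 ± 1.67 and 10.6 ± 0.401 TPM. Pole and Pold1, the catalytic chains of the replicative polymerases, had 28.2 ± 0.882 and 49.4 ± 1.08. Msh3 and Pms1 had 5.14 and 6.43 TPM, or 10.7 and 12.5 TPM with the longest transcript as length.

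All 6 source genes of MC38 neoantigens were expressed, beside 50.2% of protein-coding genes. Adpgk (Entrez 72141) had 52.4, 50.96 and 52.2 TPM, Aatf 118 ± 2.63, Reps1 71.6 ± 2.65, Dpagt1 42.8 ± 1.18, Irgq 13.8 ± 0.661 and Cpne1 157. Cpne1 shares 99.2% of its words with another gene's transcripts. In CPM, Adpgk had 157, 153 and 156 in control and from 182 to 1395 in the other 9 libraries. The table has a row per mouse gene, so reads of the construct and of the cell's own Adpgk cannot be told apart.

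Of 29 genes of cell survival, cell death and telomere upkeep 24 were expressed, 82.8% beside 50.2% of protein-coding genes. Bak1 and Bax, the pore formers of the mitochondrial pathway, had 229.6 ± 7.61 and 147 ± 7.28 TPM, and Mcl1, their antagonist, 201 ± 7.29. Mlkl, the executioner of necroptosis, had 213, 212 and 209 TPM. Ripk3, the kinase that activates Mlkl, had 1, 0 and 0 reads. Casp1 and Casp8 had 104 ± 1.404 and 60.8 ± 0.425 TPM.

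Of 50 receptor tyrosine kinases 25 were expressed, a share near the background of 50.2% of protein-coding genes. Axl, a receptor for Gas6, led with 507, 520.2 and 530.2 TPM, then Epha2 with 206 ± 5.83 and the collagen receptor Ddr2 with 197 ± 1.63. Egfr had 0.778 ± 0.0705 TPM. Of 43 growth factors 22 (51.2%) were expressed, again near that background, among them Ccn1, a matrix-associated factor, at 442 ± 6.45 TPM, and Kitl, the ligand of Kit, at 207 ± 4.89. Its receptor Kit and the Axl ligand Gas6 were among the genes not expressed. Hbegf and Ereg, ligands of Egfr, had 93.1 ± 1.04 and 61.7 ± 1.43 TPM.

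Of 40 chemokines 6 were expressed (15.0%, beside 50.2% of protein-coding genes). After Cxcl10 came Ccl2, which draws monocytes, at 82.8, 85.1 and 89.03 TPM, and Ccl5, which draws T cells, at 36.1, 37.8 and 43.04. Ccl7, Cxcl1 and Ccl25 had 7.17 ± 0.753, 6.01 ± 0.437 and 3.199 ± 0.345 TPM. Of 33 cytokines 10 were expressed (30.3%). Mif had 1336, 1337 and 1429 TPM with 46.1% of words shared, Spp1 (osteopontin) 1046, 1057 and 1099, and Csf1, the growth factor of macrophages, 532, 528 and 544. Il34, the other ligand of the Csf1 receptor, had 90.4 ± 5.199 TPM. Il6 and Tnf had 0 reads in each library. At the surface, 17 of 25 listed genes were expressed. Besides Lgals1 and Cd274 these included Bsg at 1495 ± 31.9 TPM, Cd44, the hyaluronan receptor, at 471 ± 14.9, and Cd47, the signal that holds off macrophages, at 30.3 ± 0.108. Cd24a had 0 reads in each library and Icam1, an adhesion ligand of leukocytes, 8, 1 and 8.

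Of 43 glycolytic isoforms and transporters 26 were expressed (60.5%, beside 50.2% of protein-coding genes). Pkm, pyruvate kinase, had 2509, 2515 and 2444 TPM, Aldoa, an aldolase, 1728, 1725 and 1737, and Ldha, lactate dehydrogenase A, 1607, 1607 and 1522. Library 3 was lowest for Pkm and Ldha. For Aldoa the libraries did not differ beyond counting error (chi-square test of equal rates, adjusted p = 0.806). With the longest transcript as length, Pkm stood at 4034 TPM. Ldhb, the other subunit of lactate dehydrogenase, had 22.6 ± 1.08 TPM, and the lactate exporter Slc16a3 586 ± 30.6. Gapdh, a step in the same chain, stood at 101 ± 6.28 TPM with 30.7% of words shared; many of its copies are pseudogenes, and its level is uncertain. Of 45 other metabolic genes 36 were expressed (80.0%). Scd2, a fatty acid desaturase, had 1179.96 ± 30.1 TPM, Psat1, of serine synthesis, 861 ± 7.51, and the amino acid transporter Slc7a5 705 ± 4.59.

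On the X chromosome 340 of 923 protein-coding genes were expressed (36.8%), with a median of 18.9, 19.5 and 18.9 TPM in the 3 libraries. On the autosomes 10188 of 19952 were (51.1%), with a median of 28.4, 28.5 and 28.4 TPM. None of 95 Y-linked genes was expressed. Xist, the RNA that coats an inactive X, had 2, 2 and 0 reads.

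Promoter letters were compared between genes of different level, as a description. Protein-coding genes with a RefSeq window were split into those with no read in control (5162), those with reads but not expressed (3043) and 4 equal groups of expressed genes by TPM (2142 each). GGGCGG, the GC box, was in 19.7% of promoters with no read, 38.7% of those not expressed, and 62.2%, 69.8%, 69.4% and 69.8% of the expressed groups from low to high. TATAAA, the letters of a TATA box, was in 24.3% of promoters with no read and in 6.07%, 5.79%, 5.70% and 7.70% of the expressed groups. Among the 100 genes of highest TPM the share with TATAAA was 19.0%. The median number of CG pairs was 3 in promoters with no read and 23 in the highest expressed group. TATAAA and GGGCGG were searched on both strands and anywhere in the window, so a match need not be a working TATA or GC box. The base composition of the promoters was not taken into account. For 66 cytosolic ribosomal protein genes, 47.0% held C followed by 4 pyrimidines within a few bases of the annotated start, against 18.9% of all promoters. The search did not ask for the C at the first base itself. Other lists also lay above that share, with 41.7% of 12 class II pathway promoters, 37.5% of 32 colon epithelial and 33.3% of 21 mesenchymal ones. C and a run of pyrimidines is the start known from mRNAs whose translation follows growth signals.

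**Figure D5:**
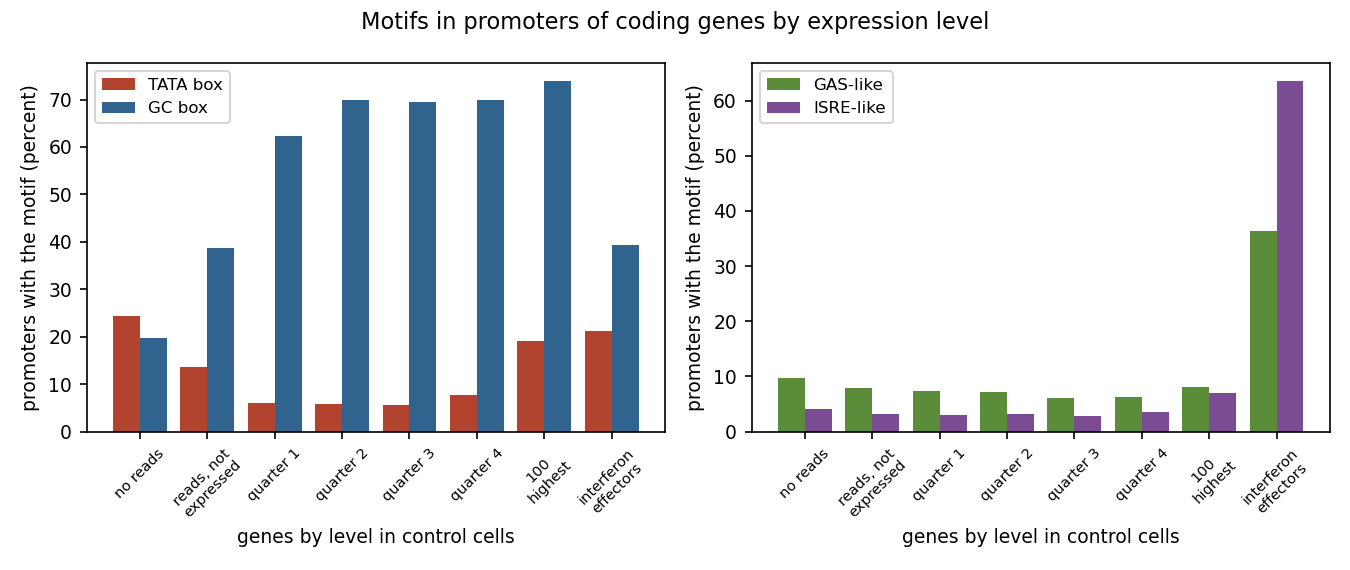
Share of protein-coding promoters that hold a motif anywhere in the window, by level in control cells. The left panel shows the letters of the TATA box and GC box, the right panel the STAT (GAS-like) and IRF (ISRE-like) elements. Bars are percents of the genes in each group; the GC box rises from 19.7% with no read to 69.8% in the highest group, and the IRF element reaches 63.6% in interferon effectors.

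Between the 3 control libraries, 1821 of 12446 genes with at least 30 reads in all (14.6%) differed by more than counting error (chi-square test of equal rates, Poisson, Benjamini-Hochberg adjusted p under 0.05). Without library 3 the number was 341 of 12096 and without library 1 it was 1073 of 12057. The common biological coefficient of variation that edgeR estimated was 3.096%, or 2.07% without library 3. Pearson's r of log2 CPM across genes was 0.997 to 0.998 for the 3 pairs, and genes are not independent replicates. Genes among the 5 most variable were Gm7429, with 522, 583 and 1435 reads, Gm15464 with 597, 360 and 321, and Rpl36a with 722, 530 and 780. Library 3 stood apart for Gm7429 and library 1 for Gm15464. These genes share 77.99%, 68.6% and 50.4% of their words with other genes. The mitochondrial gene mt-Atp8 had 2879, 3279 and 3965 reads, with library 3 again highest.

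The number of expressed genes in each list was also taken in the other 3 groups. Of the 11253 IDs expressed in control, 11196 were also expressed with doxycycline, 11211 with dTAG-13 and 11193 with both agents. In each of the 4 groups 25 mesenchymal genes, 20 Hox genes and 5 class II pathway genes were expressed, and 2 or 3 of the 45 colon epithelial markers. Other counts varied. In control, doxycycline, dTAG-13 and combined cells, 45, 48, 46 and 49 interferon effectors, 25, 25, 24 and 24 class I pathway genes, and 1, 1, 2 and 2 leukocyte genes were expressed. In the same order of groups, 11253, 11345, 11448 and 11424 IDs were expressed in all. The total was thus above that of control in each other group, and depth differed between libraries. A change in any 1 list cannot be read from these counts. Of the 100 control protein-coding genes of highest TPM, 95, 90 and 87 were also among the 100 highest with doxycycline, dTAG-13 and both. Differences between groups were not tested here.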

How the data were processed

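Per the labels' protocols, poly(A) RNA was made into libraries with a NEBNext Ultra II kit. The authors deposited a table of raw read counts per Entrez gene ID for 12 libraries, with no normalization. Per the submitters' processing notes, bcl2fastq 2.17, featureCounts and the mm10 build were used. The sources used here do not give the annotation, the strand setting or the treatment of reads with several matches, so overlapping genes and near-identical copies are uncertain.

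Symbols came from RefSeq (25275 IDs) and GENCODE M21 (17 IDs); 1887 IDs, with 1.77% of control counts, had none. CPM used total counts. TPM used the exon-union length of GENCODE M21, known for 10995 of 11253 expressed IDs. Shared words were 31-base words of a gene's longest transcript that also occur in another gene's transcripts, a measure added after the data were seen. Promoter windows came from RefSeq, GRCm38.p6.

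Expression was described without a contrast between groups. Spread between control libraries was tested per gene with a chi-square test (scipy 1.17.1), and dispersion was estimated with edgeR 4.0.16 in R 4.3.3. The spread test was tested on simulated data. Tables used Python 3.11.15, pandas 2.3.3 and numpy 2.4.6, and figures matplotlib 3.10.9.

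The members and gene lists were chosen with earlier results of these data known. The rule named the 25 nuclear protein-coding and 10 non-coding genes of highest TPM, the 3 highest expressed members of each list, every member of lists of up to 20 genes, a set of epithelial, mesenchymal and antigen presentation genes, and the 5 most variable genes at 10 CPM or more. Further list members were named after their values were seen. Alternatives were other thresholds, TMM scaling, the longest transcript as length, and leaving out each library. Some genes are not reported here.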

Additional observations from a re-analysis of the deposited data

How the results depend on the processing

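The number of expressed IDs was 11793, 9822 and 11108 at 0.5 CPM, 5 CPM and 1 TPM, and 11300 to 11314 with a library left out. Colon epithelial members above the threshold were 2 or 3, mesenchymal members 23 to 25, class I members 23 to 25 and class II members 5 or 6 under every threshold tried. At 5 CPM muscle gave 1 expressed gene, endothelium 0 and Hox 12; at 0.5 CPM and at 1 TPM leukocytes gave 2. Without mitochondrially encoded genes the 100 highest IDs took 15.1% of counts.

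With the longest transcript as length, the shares of TPM were 5.39% for mitochondrially encoded proteins, 5.32% for cytosolic ribosomal proteins, 3.14% for translation factors, 2.11% for nuclear oxidative phosphorylation, 1.87% for cytoskeleton, 1.24% for MHC class I, 1.37% for glycolysis, 1.22% for the proteasome, 0.675% for interferon effectors and 0.466% for matrix and adhesion. As shares of counts the same classes took 2.14%, 2.14%, 3.16%, 1.096%, 1.81%, 0.742%, 1.13%, 0.865%, 0.632% and 0.949%, and chaperones 2.97%. Levels were taken for 343 named genes, and the ratio of the 2 levels was defined for 290. Of these, 14 moved by over 1.5-fold, not all of them expressed, and the median factor was 0.923.

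Genes that spread beyond counting error numbered 341 to 1473 with a library left out, and the coefficient of variation was 2.07% to 3.75%; the lowest values were those without library 3. No paired analysis was possible because the results describe 1 group and come from no test between groups. Depth limits the account near 1 CPM. Between 1 and 3 CPM the median coefficient of variation was 12.2%, and at 300 CPM or more 1.84%. The SD that counting alone gives at the mean count was 12.9% and 0.832%. A median of SDs that each come from 3 libraries tends to lie below such a value, so the 2 measures are not on the same scale.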

Other observations

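Of 2077 long non-coding RNAs with an ID, 206 were expressed in these poly(A) libraries, 9.92% beside 41.4% of all IDs. Bc1, a short RNA known from neurons, had 1840, 1772 and 2132 TPM, with 40.6% of its words shared with other transcripts, and 2410006H16Rik had 1409.8, 1390.1 and 1448 TPM with no shared words. Gm3141 and C230062I16Rik followed at 544 and 382 TPM, with 83.4% and 2.13% of words shared. Gas5, a host gene of small nucleolar RNAs, had 182 TPM. The host genes Snhg8, Snhg6 and Snhg1 stood at 229, 142 and 132 TPM. Mir682 was listed at 15816.8, 15638 and 15113 TPM, from 15568, 15007 and 13202 reads, over a length of 96 bases. All of its words occur in another annotated transcript, so this value is no measure of a mature microRNA.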
